A study of Mus musculus with 4 samples.

Results

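The genes described are 10 markers of endothelial cells, the cells that line blood vessels, namely *Cldn5*, *Pecam1*, *Cdh5*, *Kdr*, *Flt1*, *Tek*, *Tie1*, *Emcn*, *Esam* and *Eng*. They were found by gene symbol, and all 10 are among the 23997 genes of the deposited table. They were chosen by their FPKM values in the same comparison that is described here, so their values are a description and carry no test. The cells were EGFP+ cells sorted by flow cytometry from the cochleae of mice at postnatal day 3, with the strain labelled as C57BL/6. Lgr5+ progenitors came from Lgr5-EGFP-IRES-creERT2 mice and Lgr6+ progenitors from Lgr6-EGFP-IRES-CreERT2 mice, so the sorting relied on a reporter driven by the *Lgr5* or the *Lgr6* locus, and both populations carried an EGFP and CreERT2 cassette. The labels list 2 libraries for each population, while the methods say that each population's RNA was divided into 3 parts, so replicates of a population shared an extraction. The table holds 1 combined FPKM (fragments mapped to a gene, scaled to transcript length and to library size) for each gene in each population. There is therefore no spread between replicates, and no difference below has a replicate check.

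Endothelial cells form the inner lining of capillaries, which in the cochlea supply the stria vascularis, the spiral ligament and the tissue below the organ of Corti, while the sensory epithelium itself is free of vessels. Their junctions are held by VE-cadherin and claudin-5, and their growth and survival are controlled by secreted VEGF and angiopoietins acting on receptor tyrosine kinases on the endothelial surface. In RNA of a whole population, fewer cells of a type and less RNA per cell cannot be told apart.

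The receptor genes are shown first, because they form a pair for VEGF, *Kdr* and *Flt1*, and a pair for angiopoietins, *Tek* and *Tie1*, and because the members of the latter pair differed in opposite directions. RefSeq promoters of the GRCm38.p6 build, from 250 bases before to 50 after the start site, were matched by symbol for 7 of the 10 genes. They are written 5′ to 3′ on the strand of the gene. Capitals mark the core of ETS family binding sites, GGAA, or TTCC where it lies on the other strand. The *Kdr* promoter is at chr5:75978406-75978705 on the minus strand and that of *Flt1* at chr5:147725962-147726261 on the minus strand. The *Tek* promoter is at chr4:94739039-94739338 on the plus strand and that of *Tie1* at chr4:118489800-118490099 on the minus strand.
Kdr: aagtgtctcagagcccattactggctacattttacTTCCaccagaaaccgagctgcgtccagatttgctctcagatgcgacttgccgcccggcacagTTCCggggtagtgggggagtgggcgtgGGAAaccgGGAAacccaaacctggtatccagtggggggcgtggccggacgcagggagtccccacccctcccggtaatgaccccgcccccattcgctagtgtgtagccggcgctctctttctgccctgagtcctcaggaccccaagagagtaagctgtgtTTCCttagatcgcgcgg
Flt1: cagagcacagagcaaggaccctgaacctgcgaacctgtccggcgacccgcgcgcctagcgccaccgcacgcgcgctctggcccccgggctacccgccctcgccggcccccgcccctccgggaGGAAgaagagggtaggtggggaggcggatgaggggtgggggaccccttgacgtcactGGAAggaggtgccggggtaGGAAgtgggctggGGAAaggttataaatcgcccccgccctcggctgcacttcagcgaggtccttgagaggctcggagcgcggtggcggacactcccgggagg
Tek: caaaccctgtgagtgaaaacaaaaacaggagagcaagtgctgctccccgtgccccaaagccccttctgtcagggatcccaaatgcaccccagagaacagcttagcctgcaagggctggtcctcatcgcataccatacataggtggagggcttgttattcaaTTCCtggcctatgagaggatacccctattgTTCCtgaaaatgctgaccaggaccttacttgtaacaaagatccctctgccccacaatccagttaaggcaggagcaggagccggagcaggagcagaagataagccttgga
Tie1: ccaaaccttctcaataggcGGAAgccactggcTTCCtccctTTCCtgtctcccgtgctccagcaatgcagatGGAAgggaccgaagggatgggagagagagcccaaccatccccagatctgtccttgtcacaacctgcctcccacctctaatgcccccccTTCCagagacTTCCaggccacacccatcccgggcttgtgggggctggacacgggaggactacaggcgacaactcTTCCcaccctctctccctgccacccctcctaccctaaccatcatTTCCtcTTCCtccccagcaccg

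ETS factors such as Erg, Fli1 and Ets1 are regulators of many endothelial genes, and Gata2 is a zinc-finger regulator of blood and endothelial genes. GGAA was searched on both strands and was present in 6 of the 7 promoters, against 95.98% of all 32851 RefSeq promoters of this length, so its presence did not set the endothelial genes apart. *Tie1* held 9 matches, *Emcn* 6, *Kdr* 5, *Eng* and *Flt1* 4 each, *Tek* 2 and *Cldn5* 0. The mean was 4.29 matches over the 7 promoters and 3.52 over all promoters. The longer form CCGGAA, which contains GGAA, was found in the *Kdr* promoter and in 14.9% of all promoters. ACAGGAA, which also contains GGAA, was found in the *Emcn* promoter at 2 positions and in that of *Tie1* at 1, against 8.67% of all promoters. The letters AGATAA, a common zinc-finger site of that family, were found in the *Tek* promoter and in 11.2% of all promoters. A match of letters is a description and not a binding site.

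The values of the table cover both populations unevenly. A value of 0 was listed for 9439 genes in Lgr5+ cells and 8215 in Lgr6+ cells, and a listed 0 can also be a failed estimate. For 7864 genes with 1 GENCODE transcript, low values multiplied by length gathered at a peak, which was taken as 1 step. The peak held 93 genes in Lgr5+ cells and 38 in Lgr6+ cells. Its position implied a depth 3.19 times as large in Lgr6+ cells as in Lgr5+ cells, which is a rough estimate. The number of fragments behind a value is not known. Genes that reached 1 FPKM in either population were kept, 13436 in all. The log2 change is the difference in log2(FPKM + 1), Lgr6+ less Lgr5+ cells, so it is positive for genes higher in Lgr6+ cells, and adding 1 makes differences between low values look smaller. The median over kept genes was 0.03. A gene is called higher in a population when log2(FPKM + 1) differed by at least 1.5-fold. For a gene kept through 1 population alone, the filter favours a call in that direction, and this holds for every list below.

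Of the sorting and identity genes, *Lgr5* had FPKM values of 9.65 in Lgr5+ cells and 24.99 in Lgr6+ cells, so it was higher in the population not sorted for it. The study describes Lgr6+ cells as a subpopulation of Lgr5+ progenitors. Every direction given here rests on the population names in the header of the table, and an exchange of these names would turn all of them. Whether the names were exchanged was not tested. *Lgr6* had 2.06 and 2.90, a difference under 1.5-fold on the log2(FPKM + 1) scale. The SC marker *Sox2* had 139.6 and 54.8, the Notch target *Hes5* had 505 and 91.7, and the epithelial adhesion gene *Epcam* had 396 and 258. *S100a1*, a calcium-binding protein gene of SCs, had 2959 and 3177. In Lgr6+ cells *Emcn*, the highest endothelial marker, stood at 29.1 beside these values.

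Of the 10 endothelial markers, 9 were called higher in Lgr6+ cells and 1, *Tie1*, was called higher in Lgr5+ cells. Over all kept genes, 28.5% were called higher in Lgr6+ cells and 23.3% in Lgr5+ cells. The median log2 change of the 10 genes was 1.88. At a 2-fold limit 8 were called higher in Lgr6+ cells and none in Lgr5+ cells, against 18.2% and 11.7% of the kept genes. The FPKM of the 10 genes summed to 21.2 in Lgr5+ cells and to 111 in Lgr6+ cells, a ratio of 5.25. Since the genes were chosen in this contrast, these counts are given beside the background and nothing is read from the difference.

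All 10 genes passed the filter on low values, but not in the same way. *Cldn5*, *Cdh5*, *Emcn*, *Esam* and *Eng* reached 1 FPKM in both populations, and these 5 were all higher in Lgr6+ cells. Over all 11177 genes that reached 1 FPKM in both, 2392 were higher in Lgr6+ cells and 2516 in Lgr5+ cells. *Pecam1*, *Kdr*, *Flt1* and *Tek* reached it in Lgr6+ cells alone, so the filter favoured a difference in that direction. *Tie1* reached it in Lgr5+ cells alone, with a value in Lgr6+ cells that lay just below 1. Among the 7907 kept genes whose mean FPKM over both populations lay within the range of the 10 genes, from 1.13 to 17.5, 32.2% were called higher in Lgr6+ cells and 22.7% in Lgr5+ cells. This narrower background was chosen after seeing the data.

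**Figure D1:**
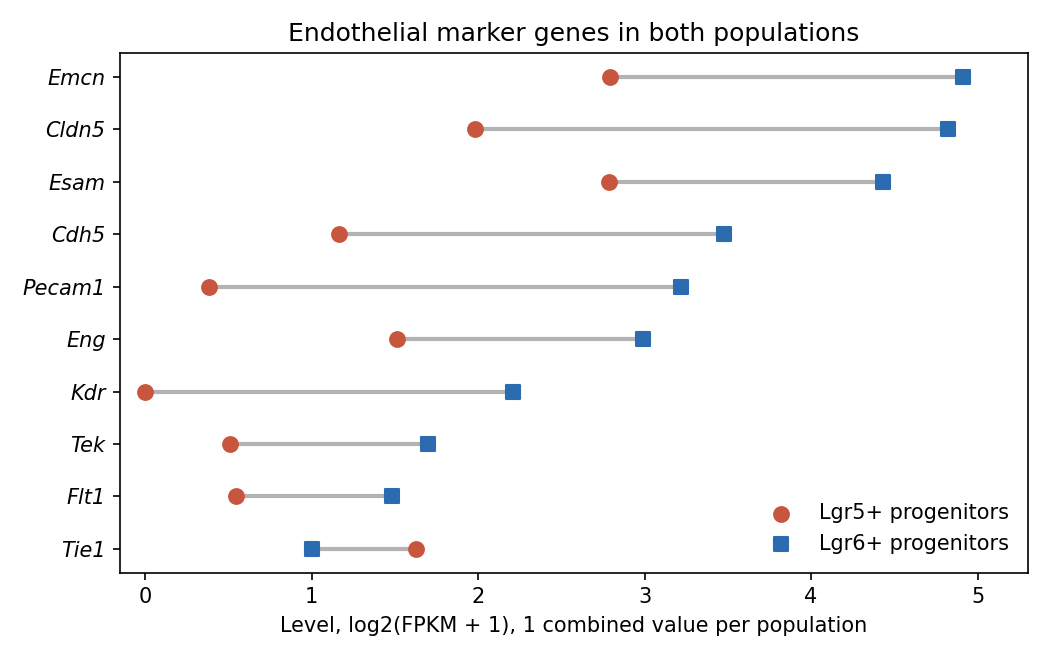
Level of each endothelial marker gene as log2(FPKM + 1) on the x axis, with circles for Lgr5+ cells and squares for Lgr6+ cells, each 1 combined value without an error. The square lies to the right of the circle for 9 genes and to the left for *Tie1*.

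With the added 1, the 3 largest log2 changes were those of junction genes, while with 0.1 added in its place that of *Kdr* was the largest, at 5.22. *Cldn5*, on chromosome 16 from 18776847 to 18778262, encodes claudin-5, the tight junction protein that seals endothelial barriers. It had FPKM values of 2.95 in Lgr5+ cells and 27.3 in Lgr6+ cells, a log2 change of 2.84 and a ratio of FPKM of 9.24. It was the second highest of the endothelial markers in Lgr6+ cells and the third highest in Lgr5+ cells. *Pecam1*, on chromosome 11 from 106654218 to 106715281, encodes CD31, an adhesion molecule at the contacts between endothelial cells that platelets and leukocytes also carry. It had FPKM values of 0.303 in Lgr5+ cells and 8.31 in Lgr6+ cells, a log2 change of 2.84. Without the added 1 the ratio was 27.5, the largest of the 9 genes for which a ratio can be formed. *Cdh5*, on chromosome 8 from 104101625 to 104144502, encodes VE-cadherin, the adherens junction protein of endothelium. It had FPKM values of 1.24 in Lgr5+ cells and 10.1 in Lgr6+ cells, a log2 change of 2.31. *Esam*, on chromosome 9 from 37528089 to 37538319, encodes an immunoglobulin-like protein at endothelial tight junctions. The values were 5.90 in Lgr5+ cells and 20.6 in Lgr6+ cells, a log2 change of 1.65. *Esam* was the junction gene with the highest level in Lgr5+ cells and with the smallest difference.

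The VEGF receptor genes were both low. *Kdr*, on chromosome 5 from 75933270 to 75978428, encodes VEGFR2, the main signalling receptor for VEGF-A on endothelium. It was listed at 0 in Lgr5+ cells and at an FPKM of 3.63 in Lgr6+ cells, a log2 change of 2.21. *Kdr* was the only 1 of the 10 genes listed at 0 in either population, so no ratio of FPKM is given for it. *Flt1*, on the same chromosome from 147562196 to 147725988, encodes VEGFR1, which binds VEGF-A and placental growth factor and in its soluble form acts as a decoy. It had FPKM values of 0.459 in Lgr5+ cells and 1.80 in Lgr6+ cells, a log2 change of 0.94. This was the smallest difference among the 9 genes higher in Lgr6+ cells, and it passed the 1.5-fold but not the 2-fold limit. In Lgr6+ cells the FPKM of *Kdr* was 2.02 times that of *Flt1*.

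The angiopoietin receptor genes differed in opposite directions. *Tek*, on chromosome 4 from 94739289 to 94874976, encodes Tie2, the receptor of the angiopoietins, and had FPKM values of 0.423 in Lgr5+ cells and 2.25 in Lgr6+ cells. Its log2 change was 1.19. *Tie1*, on the same chromosome from 118471191 to 118489849, encodes a related receptor without a known angiopoietin ligand of its own that modulates Tie2. It had FPKM values of 2.09 in Lgr5+ cells and 0.999 in Lgr6+ cells, a log2 change of -0.63. The difference was 1.55-fold on the log2(FPKM + 1) scale, close to the limit of the call, and 2.10-fold as a ratio of FPKM. The FPKM of *Tek* was 0.202 times that of *Tie1* in Lgr5+ cells and 2.25 times in Lgr6+ cells, so their order was exchanged.

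The remaining endothelial markers are surface glycoproteins. *Emcn*, on chromosome 3 from 137341078 to 137431069, encodes endomucin, a sialomucin of capillary and venous endothelium. It had the highest level of the 10 genes in both populations, with an FPKM of 5.93 in Lgr5+ cells and 29.1 in Lgr6+ cells, a log2 change of 2.12. *Eng*, with a listed interval on chromosome 2 from 32646595 to 32694175, encodes endoglin, a co-receptor for BMP9 and other TGF-beta family ligands. It had 1.85 in Lgr5+ cells and 6.96 in Lgr6+ cells, a log2 change of 1.48. The listed interval of *Eng* runs past the RefSeq end of the gene at 32682669 and overlaps *Fpgs*, so reads near that border may be uncertain. RefSeq also places long non-coding RNA genes across parts of *Cdh5*, *Kdr*, *Flt1* and *Emcn*. Only whole gene intervals were compared, so it is not known whether exons overlap. Where exons do, reads without strand cannot be told apart from those of the endothelial genes.

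Set in order of FPKM, the genes in Lgr6+ cells ran *Emcn*, *Cldn5*, *Esam*, *Cdh5*, *Pecam1*, *Eng*, *Kdr*, *Tek*, *Flt1* and *Tie1*. In Lgr5+ cells they ran *Emcn*, *Esam*, *Cldn5*, *Tie1*, *Eng*, *Cdh5*, *Flt1*, *Tek*, *Pecam1* and *Kdr*. *Tie1* was thus the fourth gene in Lgr5+ cells and the last in Lgr6+ cells. With no spread between replicates, it is not known which neighbours in these orders differ, and *Emcn* and *Esam* in Lgr5+ cells, at 5.93 and 5.90, were nearly equal. Among the kept genes the levels in Lgr6+ cells lay from percentile 5.3 for *Tie1* to percentile 77.1 for *Emcn*. In Lgr5+ cells they lay from percentile 2.07 for *Kdr* to percentile 39.2 for *Emcn*, all below the median of the kept genes.

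The ratio of FPKM in Lgr6+ over Lgr5+ cells was not the same for all endothelial markers. Apart from *Kdr*, it ran from 0.477 for *Tie1* over 3.49 for *Esam* and 4.90 for *Emcn* to 9.24 for *Cldn5* and 27.5 for *Pecam1*. The ratio of *Cldn5* to *Cdh5* was similar in the populations, at 2.38 in Lgr5+ cells and 2.69 in Lgr6+ cells. That of *Cldn5* to *Pecam1* was 9.75 and 3.28. By the steps of the low values and the longest GENCODE transcript of each gene, the Lgr5+ value of *Pecam1* stood for about 7.64 steps and that of *Tek* for about 14.7, whereas the values of *Tie1* stood for about 63.5 steps in Lgr5+ cells and 96.7 in Lgr6+ cells. The ratio of *Pecam1*, the largest, thus rests on few steps in Lgr5+ cells, while the next largest, that of *Cldn5*, rests on about 27.9.

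**Figure D2:**
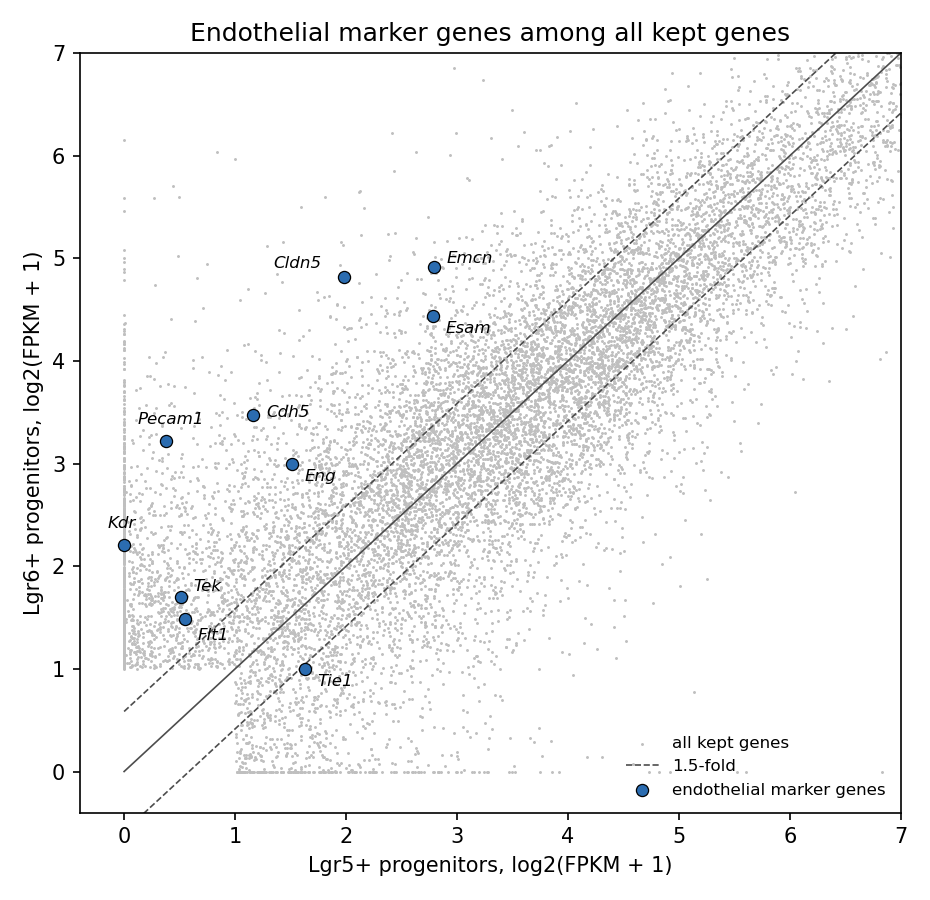
Log2(FPKM + 1) of the kept genes in Lgr5+ cells (x axis) and Lgr6+ cells (y axis), with all kept genes as grey points, the endothelial markers in blue, equality as a solid line and 1.5-fold as dashed lines, and both axes ending at 7. Of the 10 endothelial markers 9 lie above the upper dashed line, *Kdr* lies on the left edge at 0, and *Tie1* lies at the lower dashed line.

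Other endothelial genes were taken from a list of 38 genes, which like the markers was drawn up with earlier results of these data known. Of these, 29 were kept, 23 were called higher in Lgr6+ cells, 1 was called higher in Lgr5+ cells and 5 were under 1.5-fold. The median log2 change of the 29 was 1.47. In both populations 1 FPKM was reached by 10 of them, of which 5 were higher in Lgr6+ cells and none in Lgr5+ cells. Another 18 reached it in Lgr6+ cells alone, so the filter favoured that direction for them. Over all kept genes, 28.5% were called higher in Lgr6+ cells and 23.3% in Lgr5+ cells. The highest were *Egfl7*, which encodes a protein secreted by endothelium, with 15.2 in Lgr5+ cells and 74.5 in Lgr6+ cells, and *Ramp2*, the partner of the adrenomedullin receptor, with 11.1 and 74.3. *Fam107a*, the third highest, had 35.9 and 35.8. The largest changes toward Lgr6+ cells were those of *Cd34*, a sialomucin of capillaries and blood progenitors, from 0.166 to 15.4, and *Icam2*, a leukocyte ligand, from 0.270 to 9.33. *Myct1* was the gene higher in Lgr5+ cells, with 1.84 and 0.173.

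Several endothelial genes were listed at 0 or at low values in one or both populations. *Sele* and *Selp*, the selectins of activated endothelium, and *Icam1* were listed at 0 in both populations. *Vwf*, which encodes von Willebrand factor and is usual in larger vessels, had FPKM values of 0.450 in Lgr5+ cells and 0.0101 in Lgr6+ cells. In the list of 38, 12 genes were listed at 0 in Lgr5+ cells and 3 in Lgr6+ cells. Over the whole table of 23997 genes, 9439 were listed at 0 in Lgr5+ cells and 8215 in Lgr6+ cells. *Plvap*, a gene of fenestrated capillaries, had 0.637 and 5.88, and *Nos3*, endothelial nitric oxide synthase, was listed at 0 in Lgr5+ cells and had 1.46 in Lgr6+ cells.

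Of 23 TF genes with roles in endothelium, 16 were kept, 9 were called higher in Lgr6+ cells and 2 in Lgr5+ cells, with a median log2 change of 0.90. The shares over all kept genes were 28.5% and 23.3%. Among the 16, 7 reached 1 FPKM in Lgr6+ cells alone. Another 9 reached it in both populations, with 2 higher in Lgr6+ cells and 2 in Lgr5+ cells. *Sox18*, which drives endothelial differentiation, was listed at 0 in Lgr5+ cells and at an FPKM of 31.1 in Lgr6+ cells. *Lmo2* had 0.204 and 13.2, and *Lyl1* had 0.214 and 4.65, both being partners in the TF complex of blood and endothelial progenitors. Of the ETS genes, *Elk3* and *Ets2* had the highest values in Lgr5+ cells and were under 1.5-fold, with 5.75 and 8.37 for the former and 4.10 and 4.09 for the latter. *Fli1* had 0.686 and 4.71, *Ets1* had 0.130 and 3.01, and *Erg* was listed at 0 in Lgr5+ cells and had 0.180 in Lgr6+ cells. *Gata2* and *Nr2f2* were the genes called higher in Lgr5+ cells, with 52.4 and 10.98 for the former and 19.3 and 11.9 for the latter. *Gata2* is also expressed in the inner ear epithelium, and its level in Lgr5+ cells was above that of any endothelial marker. *Klf4*, by mean FPKM the second highest TF gene after *Gata2*, had 17.9 and 15.8.

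The ligands of the VEGF receptors were called in both directions. *Vegfa*, the main ligand of *Kdr*, had FPKM values of 38.2 in Lgr5+ cells and 12.3 in Lgr6+ cells, a log2 change of -1.56. *Vegfd*, listed under its older symbol *Figf*, had 6.85 and 2.13, a log2 change of -1.33. *Vegfb* had 48.3 and 63.3 and *Pgf*, placental growth factor, had 15.9 and 23.5, and neither passed 1.5-fold. *Vegfc*, a ligand of the lymphatic receptor, had 0.450 and 2.94 and was called higher in Lgr6+ cells. Among the co-receptors, *Nrp2* had 1.35 and 15.1 and *Nrp1* had 6.00 and 3.32, so they were called in opposite directions. *Flt4*, the lymphatic VEGF receptor, was listed at 0 and 0.101. Of the 13 genes of this list 10 were kept, 2 were higher in Lgr6+ cells, 3 were higher in Lgr5+ cells, and the median log2 change was 0.19. The calls were 20% and 30% of the 10, against 28.5% and 23.3% of all kept genes.

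In the angiopoietin list, the ligand *Angpt1*, which activates Tie2, had FPKM values of 12.8 in Lgr5+ cells and 5.02 in Lgr6+ cells, a log2 change of -1.20. *Angpt2*, its context-dependent antagonist, had 1.18 and 0.891, and *Angpt4* was listed at 0 in both. *Ptprb*, the endothelial phosphatase that acts on Tie2, had 0.0221 and 0.497. *Dok2* and *Tnip2*, adaptor genes reported to act with Tie2 and in other cells as well, were both higher in Lgr5+ cells, the former with 16.0 and 9.38 and the latter with 11.8 and 2.17. Of the 7 genes 4 were kept, none was higher in Lgr6+ cells and 3 were higher in Lgr5+ cells. The calls were 0% and 75% of only 4 genes, against 28.5% and 23.3% of all kept genes. In Lgr5+ cells the receptor *Tek* thus stood at an FPKM of 0.423 beside 12.8 for its ligand.

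For endoglin, *Acvrl1*, which encodes the endothelial receptor ALK1, was listed at 0 in Lgr5+ cells and at an FPKM of 2.57 in Lgr6+ cells. Its ligands *Gdf2* (BMP9) and *Bmp10* were listed at 0 in both. *Tgfbr3*, betaglycan, had 0.309 and 2.96. The other receptors *Bmpr2*, *Tgfbr1* and *Tgfbr2* had 8.22, 19.9 and 2.26 in Lgr5+ cells and 5.10, 7.44 and 1.69 in Lgr6+ cells. *Tgfb2* was the highest gene of the list, with 161 and 84.3. *Tgfb3* had 8.84 and 10.8, and *Tgfb1* had 0.0678 and 0.220. The inhibitory *Smad6* and *Smad7* had 19.7 and 14.7 in Lgr5+ cells and 10.8 and 5.03 in Lgr6+ cells. Of the 16 genes 12 were kept, 2 were higher in Lgr6+ cells and 5 in Lgr5+ cells, and the median log2 change was -0.08. The calls were 16.7% and 41.7% of the 12, against 28.5% and 23.3% of all kept genes. The 2 genes higher in Lgr6+ cells, *Acvrl1* and *Tgfbr3*, reached 1 FPKM in Lgr6+ cells alone. Among the 10 that reached it in both populations, none was higher in Lgr6+ cells and 5 were higher in Lgr5+ cells.

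**Figure D3:**
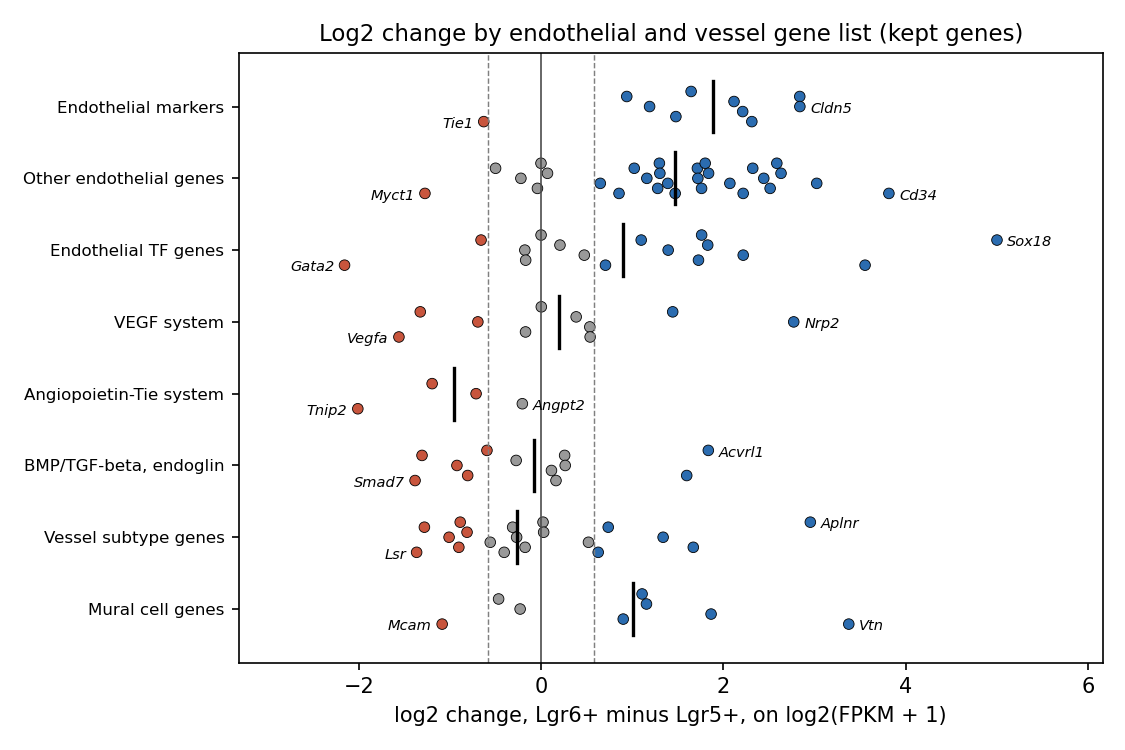
Log2 change (Lgr6+ minus Lgr5+, on log2(FPKM + 1)) of each kept gene by list, with blue for genes called higher in Lgr6+ cells, red for Lgr5+ cells, grey for neither, a black bar for the median, dashed lines for 1.5-fold and the genes at each end named. The medians are 1.88 for the endothelial markers, 1.47 for the other endothelial genes and -0.96 for the angiopoietin list.

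Of 22 genes that divide vessels into arterial, venous, barrier and lymphatic types, 19 were kept, 5 were higher in Lgr6+ cells and 6 in Lgr5+ cells, with a median log2 change of -0.27. The calls were 26.3% and 31.6% of the 19, against 28.5% and 23.3% of all kept genes. *Aplnr*, the apelin receptor of venous and growing vessels, its ligand *Apln* and the barrier transporter *Slco1c1* were listed at 0 in Lgr5+ cells and at 6.75, 2.18 and 1.53 in Lgr6+ cells. The lymphatic marker *Lyve1* had 0.0535 and 0. *Hey1* had 85.7 and 45.9, *Lsr* had 87.7 and 33.4, *Ephb4* had 22.2 and 8.55, and *Pdpn* had 18.8 and 8.81. Genes such as *Hey1*, *Lsr*, *Pdpn* and *Prox1* are also expressed in cochlear epithelium, so this list is less particular to vessels than the markers. *Ccl21a* had 32.1 and 32.5.

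Mural cells, the pericytes and smooth muscle cells that cover vessels, were measured with 16 genes that included the endothelial ligand *Pdgfb*, of which 8 were kept, 5 were higher in Lgr6+ cells and 1 was higher in Lgr5+ cells. The calls were 62.5% and 12.5% of the 8, against 28.5% and 23.3% of all kept genes. The FPKM of the 16 genes summed to 59.3 in Lgr5+ cells and 62.2 in Lgr6+ cells. Without *Pdgfb*, left out after its values were seen, 4 of the 7 kept genes were higher in Lgr6+ cells and 1, *Mcam*, in Lgr5+ cells. The sums were then 52.4 and 48.6, so their order turned. This order rested on *Mcam* alone. *Rgs5*, a pericyte gene, and *Vtn* were listed at 0 in Lgr5+ cells and had 2.64 and 9.38 in Lgr6+ cells. *Pdgfb*, whose product recruits pericytes, had 6.84 and 13.6, and its receptor *Pdgfrb* had 8.25 and 5.69. *Mcam*, the highest of the list, had 35.7 and 16.3, and *Tagln* had 2.97 and 7.84. *Acta2*, smooth muscle actin, was listed at 0 in both, and *Cspg4*, *Kcnj8* and *Des* were listed at 0 in Lgr5+ cells and had 0.711, 0.722 and 0.0141 in Lgr6+ cells.

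Markers of other cell types differed in the same comparison, in which 28.5% of all kept genes were called higher in Lgr6+ cells and 23.3% in Lgr5+ cells. Of 15 macrophage genes 12 were kept and all 12 were higher in Lgr6+ cells, the FPKM summing to 25.9 in Lgr5+ and 312 in Lgr6+ cells. Among the 12, 10 reached 1 FPKM in Lgr6+ cells alone, so the filter favoured that direction. *C1qb* had the largest change, and of the defining markers *Csf1r* and *Adgre1* (listed as *Emr1*) were at 0 in Lgr5+ cells. The genes not kept were *Ptprc* with 0 and 0.00814, *Cx3cr1* with 0.215 and 0.681, and *Itgam* with 0.259 and 0.173. The 14 mesenchyme and fibrocyte genes, all kept, summed to 354 and 745, with 8 higher in Lgr6+ and 1 in Lgr5+ cells, *Otos* showing the largest change and none at 0. The 12 Schwann cell and glial genes summed to 74.7 and 289, 7 of the 9 kept genes were higher in Lgr6+ cells, *Pmp22* changed most and *Cdh19*, *Mal*, *Pmp2* and *Prx* were at 0 in Lgr5+ cells. Among the 9, 5 reached 1 FPKM in Lgr6+ cells alone. The 14 hair cell genes, all kept, summed to 1726 and 2706, with 10 higher in Lgr6+ cells and *Ocm* the furthest. The 15 SC genes, all kept, summed to 4707 and 4133, with 6 higher in Lgr5+ and 2 in Lgr6+ cells.

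The erythroid and neuronal lists had medians below 0, and few genes were kept of the melanocyte and stria lists. Of the erythroid genes 9 were in the table, which summed to 948 in Lgr5+ cells and 413 in Lgr6+ cells. Of their 7 kept genes 5 were higher in Lgr5+ cells, *Hba-a2* the furthest, although counts of near-identical globin copies can be split between them, and *Slc4a1* and *Epb42* were among those at 0 in Lgr6+ cells. The 12 neuronal genes, all kept, summed to 391 and 281, with 3 higher in Lgr6+ and 4 in Lgr5+ cells and *Gap43* changing most, and *Prph* was at 0 in Lgr5+ cells. Of the 8 melanocyte genes 3 were kept, 2 were higher in Lgr6+ and 1 in Lgr5+ cells with a median of 1.20, the sums were 7.75 and 19.3, *Pmel* changed most and *Tyrp1* and *Mlana* were at 0 in both and *Dct* at 0 in Lgr5+ cells. Of the 7 marginal cell genes of the stria 4 were kept, 1 was higher in each population with a median of 0.30, the sums were 56.2 and 67.4, *Kcnq1* changed most, and *Kcne1* and *Bsnd* were at 0 in both. The part of these cell types in the endothelial values was not tested.

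**Figure D4:**
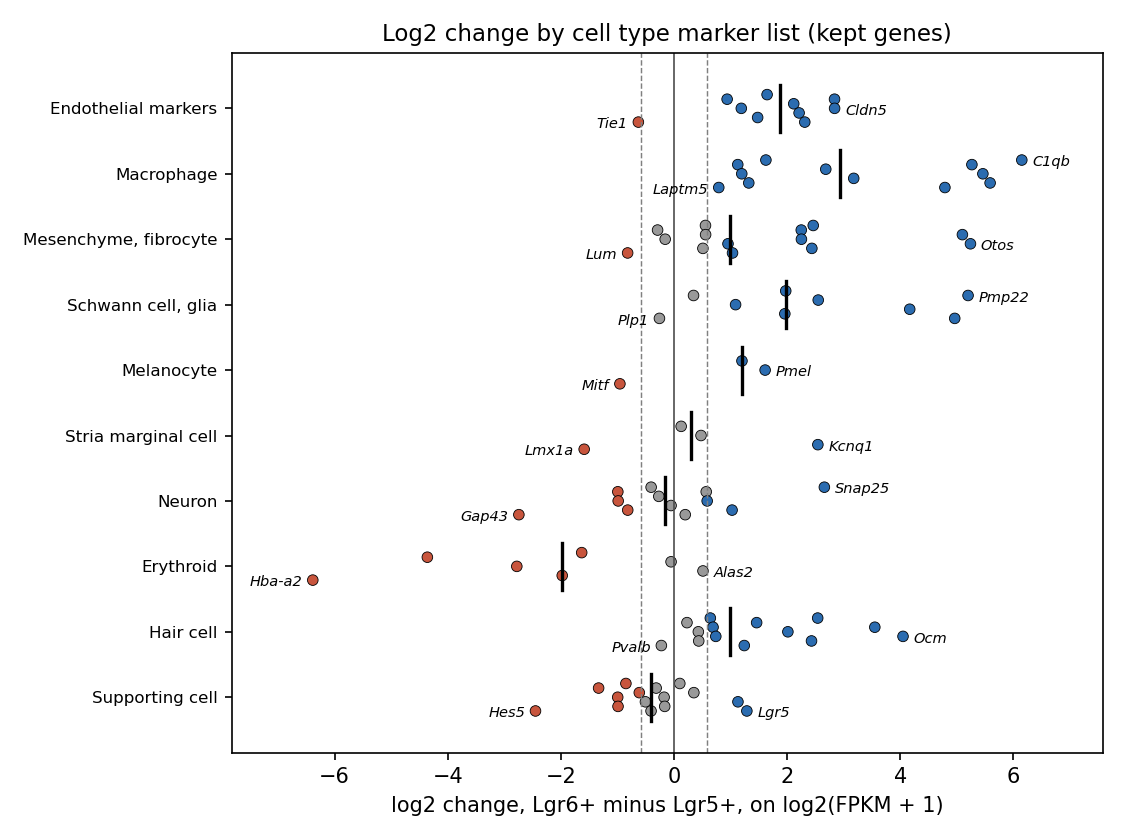
Log2 change (Lgr6+ minus Lgr5+, on log2(FPKM + 1)) of each kept gene of the endothelial markers and of marker lists of other cell types, with colours, bars and lines as in the plot of endothelial lists. The medians of the endothelial, macrophage and glial lists are 1.88, 2.93 and 1.98, and those of the erythroid and SC lists are -1.98 and -0.41.

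With 2 values for each gene, likeness to the endothelial markers could be measured over these 2 values alone. The median of the 10 genes was 1.34 in Lgr5+ cells and 3.11 in Lgr6+ cells on the log2(FPKM + 1) scale. Outside the lists, the kept genes near this point included *Tnfrsf4*, *Cplx1*, *2410018L13Rik* and *Col20a1*, at distances from 0.0612 to 0.0791. *Tnfrsf4*, a receptor gene of the TNF receptor family, had FPKM values of 1.47 in Lgr5+ cells and 7.31 in Lgr6+ cells.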

How the data were processed

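The libraries, 2 for each population by the labels and 4 in all, were made by the authors from sorted Lgr5+ and Lgr6+ cells with a low-input kit that does not mark strand. By the submitters' processing notes the reads were processed with Trimmomatic, TopHat and Cufflinks on mm10, while the methods name mm9; versions are not given in the sources used here. Per the file headers the deposited values are FPKM, 1 combined value for each population. The authors' own comparison (log2 fold change, p-value and q-value) is also in the table and was not used. The deposited start positions count from 0, and 1 was added here. The listed intervals of all 10 genes overlap the gene in GRCm38.p6, and 1 does so in NCBIM37.

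A limma fit on log2(FPKM + 1) had been planned for a table with values per sample and was not run. Genes reaching 1 FPKM in either population were kept, and a call asked for 1.5-fold on the log2(FPKM + 1) scale. The 10 genes, the lists and the alternatives were chosen with earlier results of these data known. All 10 genes were named, as were the 3 highest and the 3 furthest in each direction of the vessel lists and the furthest of the other lists, of which the text gives a part. The genes at 0 or near it, *Vwf*, *Plvap*, *Nos3*, *Hes5* and the ETS genes were named after their values were seen. Step sizes used 7864 genes with 1 GENCODE transcript, less 200 bases of length. As alternatives, the pseudocount was set to 0.1, the filter was dropped, raised to 5 FPKM or asked of both populations at 1 FPKM, and quantile normalization, upper quartile scaling and a 2-fold limit were applied. Symbols missing from the table were matched through RefSeq synonyms. Python 3.11.15 with numpy 2.4.6, pandas 2.3.3 and matplotlib 3.10.9 was used, and the calculations were tested on simulated data. The table gives no depth for a library or a value. Of the 5 genes nearest to the markers, 1 is not reported here.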

Additional observations from a re-analysis of the deposited data

How the results depend on the processing

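No paired analysis was possible because the table gives 1 combined value per population, and for the same reason no replicate could be left out. All 51 values of single endothelial markers under the alternatives kept their sign. A filter leaves a gene's log2 change as it was, and a new pseudocount cannot turn its sign. Only quantile normalization and upper quartile scaling could have turned a sign. With a pseudocount of 0.1 the median log2 change of the markers was 2.22, *Kdr* had the largest change (5.22) ahead of *Pecam1* (4.39) and *Cldn5* (3.17), 2 other endothelial genes were higher in Lgr5+ cells, and the median of all kept genes was 0.0402. With no filter the latter median was 0. When 5 FPKM was asked of 1 population, 6 markers were left, all higher in Lgr6+ cells and 0 in Lgr5+ cells, with a median of 2.21 and a ratio of sums of 5.63, and the other endothelial genes called were 10 and 0. When 1 FPKM was asked of both populations, 5 and 0 markers were called, with a median of 2.12 and a ratio of 5.26, and 5 and 0 other endothelial genes. Over all genes, 2415 of 10013 were higher in Lgr6+ and 2414 in Lgr5+ cells under the former filter. Under the latter these counts were 2392 and 2516 of 11177. The median of all kept genes turned to -0.0245 and -0.0293. After quantile normalization *Flt1* was under 1.5-fold, leaving 8 markers, with a median of 1.81 and a ratio of 4.52, 2 other endothelial genes were higher in Lgr5+ cells, and the median of all kept genes was -0.0337, with 3307 genes higher in Lgr6+ and 3556 in Lgr5+ cells. The excess of calls toward Lgr6+ cells over the whole background was thus close to 0 or turned under these filters and under quantile normalization. Upper quartile scaling gave a median of 1.89, a ratio of 5.29 and 0.0466 for all kept genes. At 2-fold *Tie1* was not called, which left 0 markers higher in Lgr5+ cells, and 2443 and 1575 genes passed over the whole table. The cause of these shifts was not tested beyond what each filter or limit removes by construction.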
